A study of Mus musculus with 68 samples.

Results

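The question addressed here is which genes responded to the genotype label Hoxa2-/- differently in pharyngeal arch 2 (PA2) than in pharyngeal arch 1 (PA1) of mouse embryos at the developmental stage E10.5. The measure was a difference of differences on the log2(CPM + 1) scale: the Hoxa2-/- label minus wildtype in PA2, minus the same in PA1, where CPM is the deposited depth-scaled read level (counts per 1e+06 reads). It used the 12 E10.5 libraries of the 68 in the series, which were 3 wildtype PA1, 3 wildtype PA2, 3 PA1 labelled Hoxa2-/- and 3 PA2 labelled Hoxa2-/-. All embryos were of the strain CBA/Ca/J x C57BL/10, and the label Hoxa2-/- stands for loss of both copies of Hoxa2 with no further allele, agent or treatment named. Both arches of an embryo were dissected, and the arches were paired by replicate number within a label, which gave 3 embryos per label. Each library was made from polyadenylated RNA of a dissected arch with all its cells, so fewer cells of a type and less RNA per cell cannot be told apart.

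Pharyngeal arches are outgrowths of the embryonic head and neck that are filled by neural crest cells and build the face, jaws and neck. PA1 is free of Hox gene expression and forms the jaws, whereas PA2 expresses Hoxa2, a homeobox transcription factor that gives the PA2 crest its identity. Mice without Hoxa2 are known for a PA2 that forms a mirror-image copy of PA1 skeletal parts. Hox proteins bind DNA together with the TALE homeobox cofactors of the Meis and Pbx families, and Groucho proteins such as Tle4 act as corepressors.

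Of 18428 genes tested, 10 passed an adjusted p of 0.05 in the difference between arches (limma with the embryo as a block and Benjamini-Hochberg adjustment), which is 0.0543% of the genes. The genes Hoxa2, Tle4, Pitx1, Shox2 and Hs3st1 had a positive difference, and Meis2, Tcf24, Errfi1 and the non-coding transcripts 3110099E03Rik and 8430419K02Rik had a negative one. The non-coding transcripts lie on the same chromosomes as Meis2 and Meis1, near each. All 10 genes had embryos of the 2 labels that did not overlap in PA2 minus PA1, which was also true of 18% of all genes tested. For comparison, 1904 genes (10.3%) passed for the label in PA2 alone and 562 (3.05%) in PA1 alone, and 377 of these passed in both arches in the same direction, which is 19.8% of the PA2 calls and 67.1% of the PA1 calls. With 1 library left out in turn the counts were 1100 to 1419 in PA2 and 181 to 596 in PA1. No gene passed in opposite directions. The contrasts share libraries, and 8 of the 10 genes also passed in PA2 while 2, 3110099E03Rik and Shox2, passed in PA1.

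**Figure D1:**
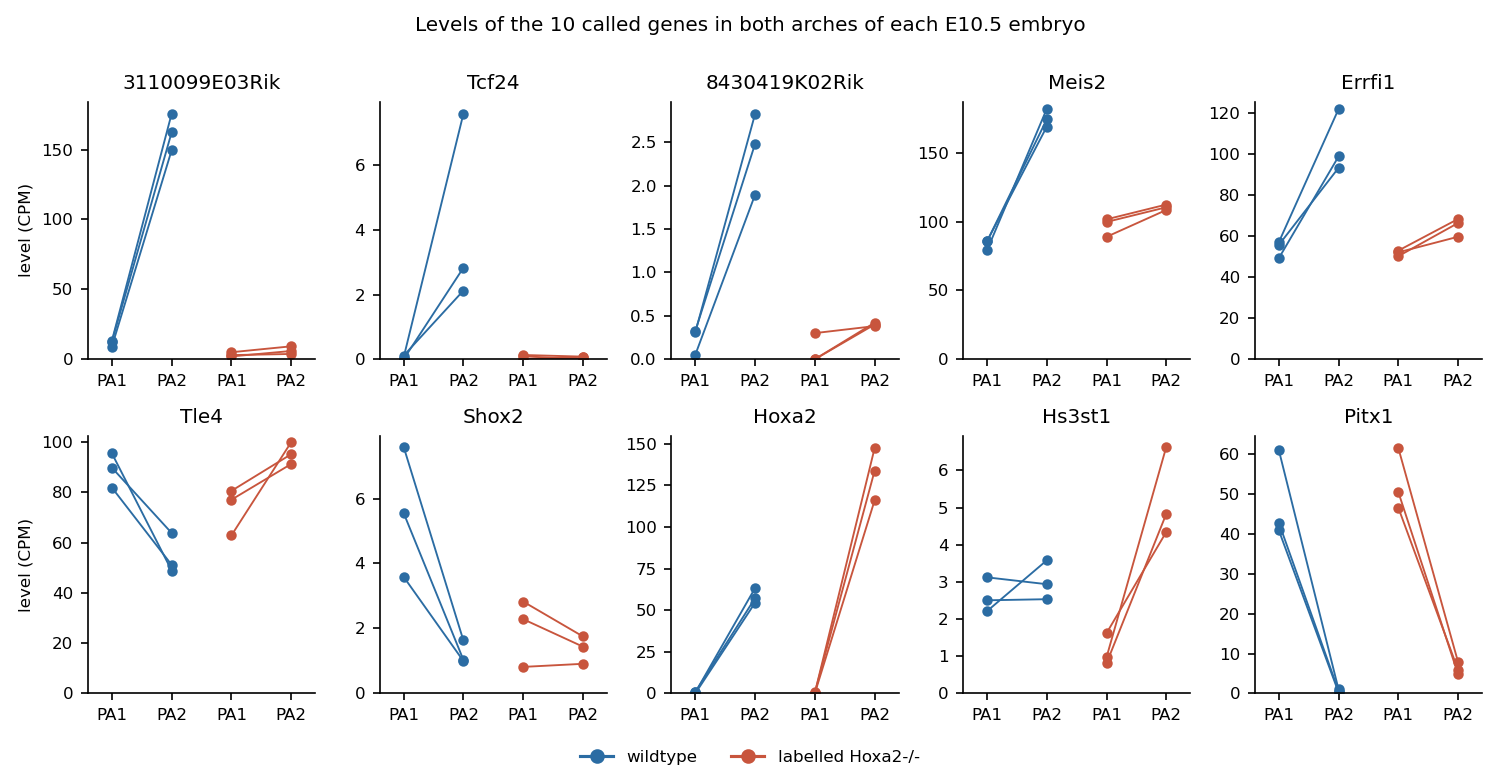
Level in CPM (y axis, from 0, scale differing by panel) of the 10 genes past the threshold, in PA1 and PA2 of the 3 wildtype (blue) and 3 labelled Hoxa2-/- (red) embryos at E10.5. Each line joins the 2 arches of 1 embryo, and in 3110099E03Rik wildtype PA2 sits between 150 and 176 while the other groups stay under 14.

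The libraries held 10983864 to 18700596 reads, and the lowest wildtype total, 17244704, was above the highest total with the label Hoxa2-/-, 15891152. A count of 3 reads, taken as the floor, was worth 0.155 to 0.272 CPM. At E10.5 Hoxa2 stood at 0.052 to 0.926 CPM in PA1 and at 54.5 CPM or more in PA2, so all 12 libraries matched their arch labels in this gene. The genotype label was confounded with a division of libraries: 29 genes separated 18 wildtype libraries of E9.0 and E9.5 from 38 other libraries of the earlier stages, and 25 of the 29 also separated the labels at E10.5. The 25 genes that were higher in those 18 libraries had a median label effect of -0.76 in PA2 and -0.65 in PA1. Their median was -0.06 in the difference between arches. Of the 29 genes 0 passed there (0.0543% of all genes did), with values from -0.50 to 0.73. The 29 were chosen for standing apart in libraries of both arches, which itself favoured a small difference. These values therefore do not test whether subtracting PA1 removes the division. Within an arch, genotype label and this division cannot be told apart at E10.5.

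**Figure D2:**
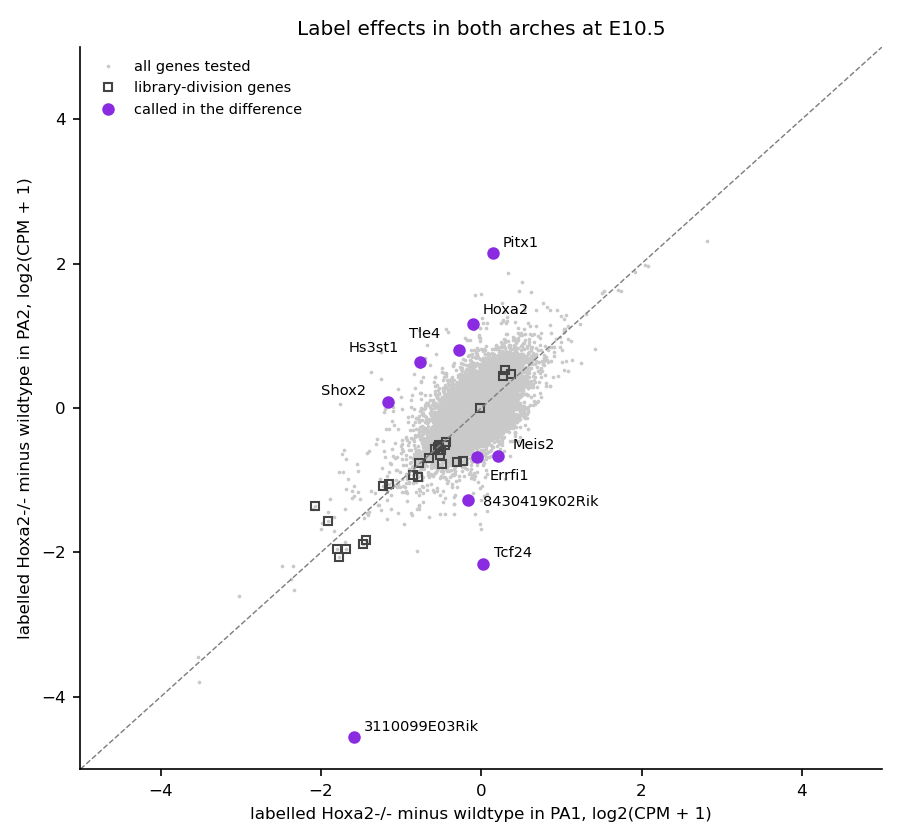
Label effect (labelled Hoxa2-/- minus wildtype, log2(CPM + 1)) in PA1 (x axis) and PA2 (y axis) for all 18428 genes tested (grey dots), the 29 library-division genes (open squares) and the 10 genes past the threshold (purple). The dashed line marks equal effects, and the division genes lie near it, with differences of -0.50 to 0.73, while 3110099E03Rik lies 2.96 below it and Pitx1 2.01 above.

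Hoxa2 itself (ENSMUSG00000014704, chr6:52162417-52164831, minus strand) was read first as the targeted gene. It stood at 57.2, 63.3 and 54.5 CPM in wildtype PA2 and at 147, 134 and 116 CPM in PA2 labelled Hoxa2-/-, with 0.926, 0.580 and 0.052 CPM in wildtype PA1 and 0.361, 0.588 and 0.181 CPM in PA1 with that label. The 3 PA2 libraries labelled Hoxa2-/- were each above all 3 wildtype PA2 libraries, which goes against the label if the measured part of the transcript was removed. Which part of the gene was deleted is not given in the sources used here. The difference between arches was 1.27 ± 0.22 (SE, adjusted p = 0.0055, limma), and the label effect in PA2 was 1.16. Every direction given for the label below is that of libraries labelled Hoxa2-/- in which Hoxa2 RNA was present.

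The TALE gene Meis2, a partner of Hox proteins on DNA, is at chr2:115863064-116065839 on the minus strand (ENSMUSG00000027210). It stood at 175, 182 and 169 CPM in wildtype PA2, at 109, 111 and 113 CPM in PA2 labelled Hoxa2-/-, at 85.8, 79.3 and 85.9 CPM in wildtype PA1 and at 89.1, 99.9 and 102 CPM in PA1 with the label. The PA2 groups did not overlap, and all PA1 libraries of the label were above those of wildtype. The difference between arches was -0.87 ± 0.10 (SE, adjusted p = 6.2e-06, limma), made of -0.66 in PA2 and 0.21 in PA1. Meis2 was 1.06 higher in PA2 than in PA1 of wildtype embryos and 0.19 higher with the label, where the arches no longer passed the test (adjusted p = 0.17).

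The long non-coding RNA 3110099E03Rik (ENSMUSG00000085582, chr2:115493513-115527744, minus strand) lies on the same strand as Meis2 and 335320 bases from it, with the gene BC052040 between them. It stood at 162, 176 and 150 CPM in wildtype PA2 and at 9.23, 3.76 and 5.89 CPM in PA2 labelled Hoxa2-/-, against 12.6, 13.2 and 9.06 CPM in wildtype PA1 and 4.99, 2.94 and 2.00 CPM in PA1 with the label. Both arches fell without overlap, PA2 by 4.55 and PA1 by 1.59 on the log2 scale. The difference of -2.96 ± 0.26 (SE, adjusted p = 1.9e-08, limma) had the smallest p of all genes tested. BC052040 had a difference of -0.29 (adjusted p = 0.76), with means of 45.3 CPM in wildtype PA2 and 40.3 CPM in labelled PA2.

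The transcript 8430419K02Rik (ENSMUSG00000085743, chr11:18845851-18874309, minus strand) lies 5508 bases from Meis1, the paralogue of Meis2, on the same strand. It stood at 2.48, 1.90 and 2.83 CPM in wildtype PA2 (48, 36 and 51 reads) and at 0.381, 0.400 and 0.421 CPM in PA2 labelled Hoxa2-/- (5, 5 and 6 reads). Wildtype PA1 held 0.327, 0.053 and 0.312 CPM, and PA1 with the label 0.301, 0 and 0 CPM, so each group other than wildtype PA2 was near or under the floor. It met the filter of 1 CPM in 3 libraries through wildtype PA2 alone (3 libraries at E10.5 and 1 at E10.0), so the filter itself favoured a difference. The difference between arches was -1.11 ± 0.19 (SE, adjusted p = 0.0049, limma). Meis1 itself did not pass (difference -0.74, adjusted p = 0.22), although it fell in PA2 by 0.88 on the log2 scale (adjusted p = 4.1e-04, limma) from 267 ± 5.27 to 146 ± 22.6 CPM (SD, n = 3), against 74.1 ± 4.39 and 67.2 ± 5.88 CPM in PA1.

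Further transcripts at the 2 Meis loci were examined after their values were seen. G630016G05Rik, on the strand opposite Meis2 and 1386 bases from it, had a difference of -0.83 (adjusted p = 0.18) and fell in PA2 by 0.88 (adjusted p = 1.6e-04, limma), from a mean of 2.22 to 0.747 CPM. The non-coding RNA 2700033N17Rik, on the strand of Meis2 and 379 bases from it, had a difference of -0.60 (adjusted p = 0.81) and PA2 means of 4.05 and 2.50 CPM (-0.53, adjusted p = 0.088). The entries 2900018N21Rik and 2610001A08Rik lie inside Meis1 on its strand and had differences of -0.91 (adjusted p = 0.32) and -0.57 (adjusted p = 0.78). Both fell in PA2, by 0.86 (adjusted p = 0.0012, limma) and 0.92 (adjusted p = 5.4e-05) on the log2 scale. Counting by strand is not stated for these data, so reads of overlapping or antisense genes may be split between them.

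The proximal promoters show where the letters of the Hox and Meis motifs stand in these genes. RefSeq promoters of 300 bases (250 before to 50 after the start, GRCm38.p6) were found for 8 of the 10 genes, and 3 motifs were searched on both strands: TGATNNAT for Hox with Pbx, TGACAG for Meis and TAATTA for homeodomains. Of 32851 promoters, 8.85% held the first, 19.2% the second and 5.29% the third. Hoxa2 held the first and the second and 3110099E03Rik the second, while the promoters of Meis2, Tle4, 8430419K02Rik, Hs3st1, Shox2 and Errfi1 in the table held none of the 3 in this window. The windows around the matches are printed for these 2 genes because they alone of the 8 held a match. Each window runs 5′ to 3′ on the gene's minus strand, with the motif in capitals. For 3110099E03Rik the start is that of the RefSeq transcript, at position 115512201, which lies 15543 bases inside the GENCODE gene and not at its start. For Hoxa2 the 2 starts are the same.
Hoxa2, Hox-Pbx letters read on the other strand, 111 bases before the start, chr6:52164895-52164982: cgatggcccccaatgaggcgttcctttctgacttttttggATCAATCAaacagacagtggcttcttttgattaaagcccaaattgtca
Hoxa2, Meis letters, 44 bases before the start, chr6:52164832-52164915: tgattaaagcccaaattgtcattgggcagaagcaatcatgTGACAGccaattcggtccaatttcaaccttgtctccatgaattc
3110099E03Rik, Meis letters read on the other strand, 128 bases before the start, chr2:115512284-115512369: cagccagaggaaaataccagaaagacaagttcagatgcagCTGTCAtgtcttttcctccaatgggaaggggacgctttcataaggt
The matches describe letters only, and the Hoxa2 windows overlap.

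Tle4 (ENSMUSG00000024642, chr19:14448150-14598051, minus strand) encodes a Groucho corepressor. It stood at 51.2, 63.8 and 48.9 CPM in wildtype PA2 and at 91.3, 95.2 and 100 CPM in PA2 labelled Hoxa2-/-, beside 81.9, 89.8 and 95.6 CPM in wildtype PA1 and 77.1, 80.6 and 62.9 CPM in PA1 with the label. In wildtype all PA1 libraries were above PA2, and with the label all PA2 libraries were above PA1. The difference was 1.08 ± 0.21 (SE, adjusted p = 0.029, limma), and PA2 minus PA1 went from -0.70 in wildtype to 0.38 with the label (adjusted p = 0.20). Of the 6 Groucho family genes tested Tle4 alone passed in the difference, which 0.0543% of all genes did. The others ran up to 0.08 and down to -0.41. The lowest, Aes, fell in PA2 alone by 0.84 (adjusted p = 5.9e-04, limma), where Tle4 rose by 0.80 (adjusted p = 5.2e-04). Aes was picked after its values were seen.

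Pitx1 (ENSMUSG00000021506, chr13:55825051-55836192, minus strand), a homeobox gene of PA1 and the hindlimb, had 0.259, 1.00 and 0.610 CPM in wildtype PA2 and 7.86, 4.80 and 5.89 CPM in PA2 labelled Hoxa2-/-. In PA1 it stood at 41.0, 61.1 and 42.9 CPM in wildtype and at 61.6, 50.6 and 46.6 CPM with the label. The PA2 groups did not overlap, and the PA1 groups did. The difference was 2.01 ± 0.29 (SE, adjusted p = 4.4e-04, limma; adjusted p = 0.23 without the embryo block), and labelled PA2 remained 2.92 below PA1 on the log2 scale against 4.93 in wildtype. The entry Gm47071 overlaps Pitx1 on the other strand and had a difference of 0.06 (adjusted p = 0.99).

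Shox2 (ENSMUSG00000027833, chr3:66971727-66981771, minus strand), a homeobox gene of facial and limb mesenchyme, passed through a lower level in PA1. It stood at 5.55, 7.59 and 3.59 CPM in wildtype PA1 and at 2.83, 2.29 and 0.816 CPM in PA1 labelled Hoxa2-/-, against 1.03, 1.63 and 0.998 CPM and 1.75, 1.44 and 0.911 CPM in PA2. The labels did not overlap in PA1 and overlapped in PA2. The difference was 1.25 ± 0.24 (SE, adjusted p = 0.029, limma), made of -1.17 in PA1 (adjusted p = 0.0013) and 0.09 in PA2 (adjusted p = 0.87).

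Tcf24 (ENSMUSG00000099032, chr1:9960163-9967932, minus strand), which encodes a basic helix-loop-helix factor, was read in wildtype PA2 at 2.12, 7.59 and 2.83 CPM (41, 144 and 51 reads). The other 9 libraries held 0 to 2 reads each, under the floor, so no fold is given. It met the filter of 1 CPM through these 3 wildtype libraries and 1 labelled PA1 library of E9.5, so the filter itself favoured a difference. The difference was -2.18 ± 0.29 (SE, adjusted p = 1.1e-04, limma), and edgeR on the recovered reads gave an adjusted p of 0.42. Errfi1 (ENSMUSG00000028967, chr4:150853919-150868892, plus strand) encodes an inhibitor of EGF receptor signalling. It had 93.2, 98.8 and 122 CPM in wildtype PA2 and 66.4, 68.3 and 59.7 CPM in PA2 labelled Hoxa2-/-, while PA1 held 55.7, 49.2 and 57.0 CPM in wildtype and 50.2, 52.9 and 52.1 CPM with the label. The PA2 groups stood apart and the PA1 groups overlapped, for a difference of -0.62 ± 0.12 (SE, adjusted p = 0.034, limma).

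Hs3st1 (ENSMUSG00000051022, chr5:39613935-39755475, minus strand) encodes a heparan sulfate sulfotransferase. It had 2.53, 3.58 and 2.94 CPM in wildtype PA2, 4.35, 6.64 and 4.84 CPM in PA2 labelled Hoxa2-/-, 2.51, 2.21 and 3.12 CPM in wildtype PA1 and 1.62, 0.980 and 0.816 CPM in PA1 with the label. The label groups did not overlap in either arch and stood on opposite sides of wildtype. The difference was 1.40 ± 0.27 (SE, adjusted p = 0.029, limma), whereas PA2 alone (0.63, adjusted p = 0.079) and PA1 alone (-0.77, adjusted p = 0.063) did not pass.

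The calls differed in how far they rested on single embryos. With each E10.5 embryo left out in turn, 3110099E03Rik, Meis2, Tcf24 and Pitx1 passed in 6 of 6 fits. 8430419K02Rik passed in 5, and without the labelled embryo 1 its adjusted p was 0.065. These fits kept the genes filtered over all libraries, so for Tcf24 and 8430419K02Rik they carry the filter's favour for a difference. Hoxa2 did not pass without wildtype embryo 1 or labelled embryos 1 or 3 (adjusted p up to 0.12), and Hs3st1 passed only without wildtype embryo 2 or labelled embryo 1 (up to 0.24). Tle4 passed only without wildtype embryo 2, Shox2 only without wildtype embryo 3 and Errfi1 only without wildtype embryo 1, with limma adjusted p-values up to 0.31 otherwise. The number of genes past the threshold was 5 without labelled embryo 3, and 176 when the spread was taken from the 6 E10.5 embryos alone. Without the embryo block Hoxa2 (adjusted p = 0.092), Pitx1 (0.23), Hs3st1 (0.16), Shox2 (0.34) and Errfi1 (0.36) did not pass, and with edgeR on the recovered reads Hoxa2 (0.50), Tcf24 (0.42), 8430419K02Rik (0.81) and Shox2 (0.43) did not.

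**Figure D3:**
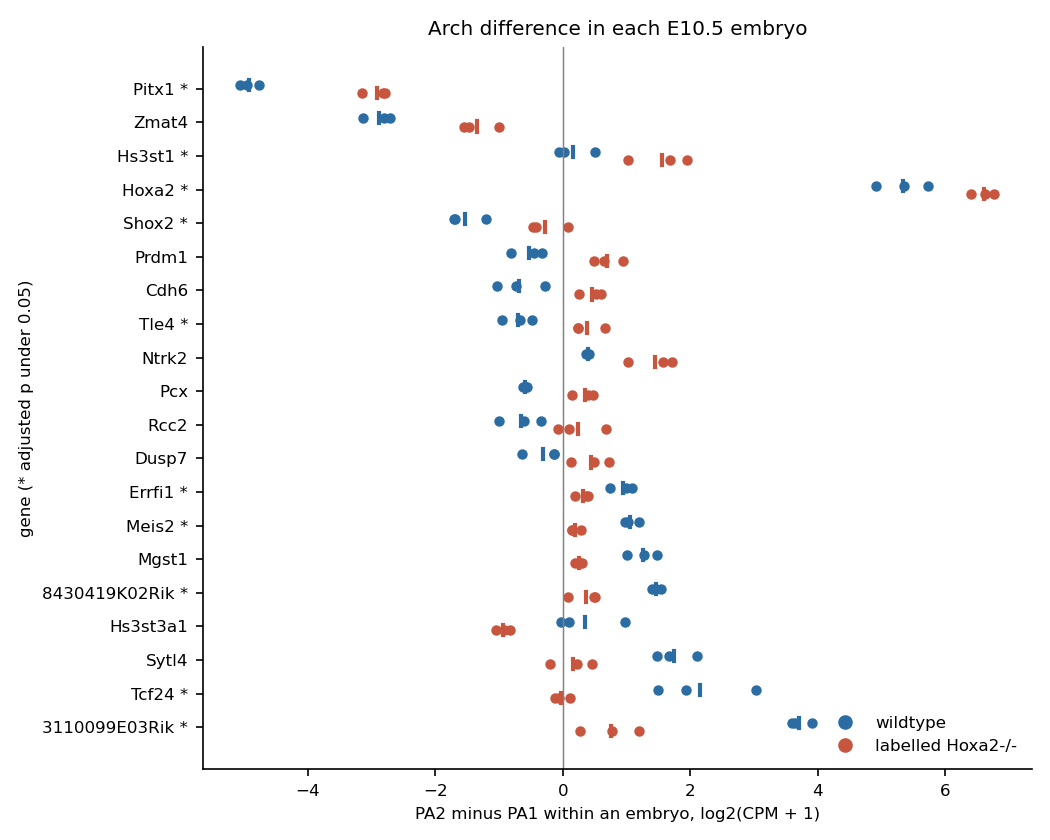
PA2 minus PA1 on the log2(CPM + 1) scale (x axis) in each of the 3 wildtype (blue) and 3 labelled Hoxa2-/- (red) embryos at E10.5, for the 10 genes past the threshold (asterisk) and the 10 next genes by the naming rule (y axis). Points are embryos and short bars are group means; for Meis2 the wildtype embryos lie between 0.97 and 1.19 and the labelled embryos between 0.14 and 0.28.

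The next 10 genes were taken by unadjusted p, with at least 5 CPM in a group and embryos of the labels that did not overlap. Genes whose symbol is a Gm number or ends in Rik were left out. The 10 did not pass, with adjusted p-values from 0.053 to 0.088 (limma). Of these Ntrk2, a neurotrophin receptor, had a difference of 1.05, Rcc2 0.89, the pyruvate carboxylase Pcx 0.93, Prdm1, a transcriptional repressor, 1.22, Dusp7, a MAP kinase phosphatase, 0.76, the cadherin Cdh6 1.15 and Zmat4 1.54. The other three were lower: Hs3st3a1, another heparan sulfate sulfotransferase, at -1.28, Sytl4, a Rab27 effector of vesicle docking, at -1.59, and the glutathione transferase Mgst1 at -0.998. Sytl4 stood at 16.1, 13.9 and 12.4 CPM in wildtype PA2 and at 3.43, 5.28 and 3.36 CPM in PA2 labelled Hoxa2-/-. Its PA1 libraries held 3.00, 3.69 and 3.80 CPM in wildtype and 4.09, 4.38 and 2.177 CPM with the label, so labelled PA2 overlapped PA1. Sytl4 passed in PA2 alone (-1.61, adjusted p = 8.6e-07, limma). Kcna1, a potassium channel gene with a smaller p than Dusp7, was left out by its level. Its PA2 means were 0.123 CPM in wildtype and 1.26 CPM with the label. Its difference was 1.01 (adjusted p = 0.056, limma), and it passed in PA2 alone (0.98, adjusted p = 6.2e-06).

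Among gene lists chosen with earlier results of these data known, the list of Hoxa2 targets and arch identity genes had 20 members tested, of which Pitx1 rose and Meis2 fell in the difference. A further 9 had an unadjusted p under 0.05 without passing, a level reached by 5.90% of all genes, and the list's median was 0.32 against 0.02 over all genes. In PA2 alone 4 members rose and 6 fell, and in PA1 alone 2 fell, against 10.3% and 3.05% of all genes called in these arches. Genes of PA1 identity with higher PA2 levels under the label included Lhx6, at 2.02, 2.00 and 2.38 CPM in wildtype PA2 and 11.1, 5.92 and 6.59 CPM in labelled PA2 (difference 1.19, adjusted p = 0.26), and Alx4 with PA2 means of 4.37 and 10.2 CPM (difference 1.46, adjusted p = 0.46). PA2-enriched members with lower PA2 means were the Wnt receptor gene Fzd4, at 114 and 55.6 CPM (difference -0.98, adjusted p = 0.43), and the repressor gene Zfp503, at 15.4 and 7.67 CPM (difference -0.81, adjusted p = 0.39). These 4 genes passed in PA2 alone and were picked after their values were seen. Six2, the member of smallest p among those that did not pass, had a difference of 1.65 (adjusted p = 0.14, limma). It fell in PA1 by 1.24 (adjusted p = 0.031), and its PA2 effect of 0.41 did not pass (adjusted p = 0.51).

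The related homeobox lists showed the same few calls. Among 10 PA1 jaw homeobox genes only Pitx1 passed, with a median of 0.51, and 3 members, 0 of them lower, passed in PA2 alone (10.3% of all genes). Among 6 Alx, Prrx and Shox2 genes only Shox2 passed (median 0.59). Of 9 TALE genes only Meis2 passed, and Pknox2 stood at 0.63 (adjusted p = 0.30). Of 7 Hox genes only Hoxa2 passed, while Hoxaas2, the antisense transcript 843 bases from Hoxa2, rose in PA2 from 20.6 to 35.1 CPM (0.74, adjusted p = 0.0047, limma) with a difference of 0.80 (adjusted p = 0.48). Hoxb3os, an antisense transcript of the Hoxb cluster picked after its values were seen, fell in PA2 from 1.47 to 0.472 CPM (-0.75, adjusted p = 3.7e-04, limma) with a difference of -0.64 (adjusted p = 0.54). The lists of 8 Dlx genes, 12 endothelin and Hand genes and 12 Hedgehog genes had 0 members past the threshold and 0 with an unadjusted p under 0.05 by limma, and with 0.0543% and 5.90% of all genes at these levels such counts of 0 are not a result about the lists.

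**Figure D4:**
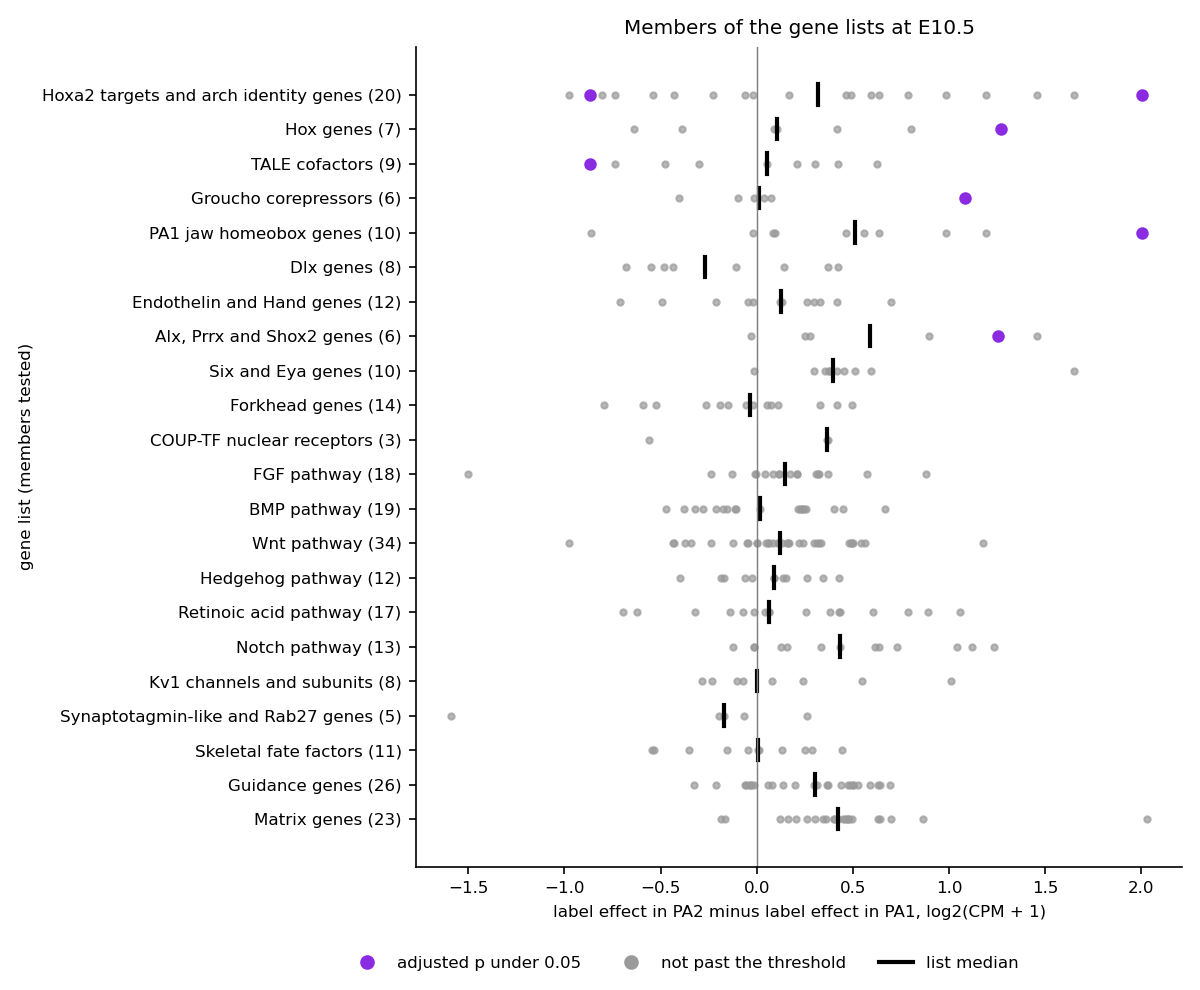
Difference of label effects between PA2 and PA1 at E10.5, log2(CPM + 1) (x axis), of every tested member of 22 gene lists (y axis, number tested in parentheses). Purple points passed the adjusted p of 0.05, grey points did not and black bars are list medians; the called points are Pitx1, Meis2, Hoxa2, Tle4 and Shox2, of which Pitx1 and Meis2 each appear in 2 lists.

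The signalling lists held no gene past the threshold, which 0.0543% of all genes passed. Of 13 Notch genes 0 passed, 3 had an unadjusted p under 0.05 (5.90% of all genes) and the median was 0.44: the target gene Hey1 stood at 38.6, 39.0 and 37.4 CPM in wildtype PA2 and 65.7, 79.5 and 79.4 CPM in labelled PA2 (difference 1.12, adjusted p = 0.13). The ligand gene Jag1 had PA2 means of 23.2 and 52.0 CPM (difference 1.04, adjusted p = 0.57). Both passed in PA2 alone, Hey1 at 0.94 (adjusted p = 9.7e-04, limma) and Jag1 at 1.11 (adjusted p = 0.0037). The receptor gene Notch2 went the other way in PA2, at -1.02 (adjusted p = 0.0064), and fell in PA1 by 0.90 (adjusted p = 0.040). Jag1 and Notch2 were picked after their values were seen. Markers of endothelium, which also uses Notch signals, summed to 258 to 282 CPM in wildtype PA2 and 314 to 399 CPM in labelled PA2, against 235 to 273 and 265 to 277 CPM in PA1, with none of the 13 markers at 0, and their part in these values was not tested. Of 34 Wnt genes 0 passed, and the Wnt enhancer Rspo2 went from a PA2 mean of 10.4 to 23.2 CPM (difference 1.18, adjusted p = 0.21). Of 18 FGF genes 0 passed, and the ligand gene Fgf15 had PA2 levels of 11.2, 7.69 and 10.3 CPM in wildtype and 3.97, 3.12 and 1.96 CPM with the label (difference -1.50, adjusted p = 0.48). Of 17 retinoic acid genes 0 passed, and the receptor gene Rxra, at PA1 means of 54.0 and 25.3 CPM, had a difference of 1.06 (adjusted p = 0.18). Of 23 matrix genes 0 passed with a median of 0.42. Emilin1, the matrix gene of smallest p, had PA2 means of 98.2 and 210 CPM (difference 0.64, adjusted p = 0.54). The collagen gene Col4a2, picked after its values were seen, had PA2 means of 57.5 and 128 CPM (difference 0.86, adjusted p = 0.68).

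Markers of other cells in a dissected arch gave 0 calls among 107 members of 10 lists in the difference, where 0.0543% of all genes were called. In PA2 alone 1 of these members rose and 9 fell, which is 9.35% against 10.3% of all genes. The neural crest and glia markers summed to 82.9 to 98.5 CPM in wildtype PA2 and 103 to 111 CPM in labelled PA2. Surface epithelium summed to 445 to 488 and 433 to 500 CPM, and red cell genes to 4995 to 8290 and 2242 to 7974 CPM in the same 2 groups. Macrophage markers summed to 21.8 to 31.9 CPM in wildtype PA2 and 7.85 to 19.6 CPM in labelled PA2. In PA1 they summed to 25.4 to 32.9 CPM in wildtype and 11.8 to 28.9 CPM with the label. Neurog1, a marker of ganglion neurons, was at 0 in all 12 libraries. The part of these cells in the differences given above was not tested.

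At E10.0, in 5 other embryos per label, the same contrast gave 4 calls (0.0217%), all negative: 3110099E03Rik at -2.36 ± 0.20 (SE, adjusted p = 8.8e-09, limma), Meis2 at -0.49 ± 0.08 (SE, adjusted p = 0.0018), Kcna5, a potassium channel gene, at -1.68 and E330013P04Rik at -1.39. The last 2, named after their values were seen, had an E10.5 difference of -0.28 each (adjusted p = 0.93). Of the 10 genes called at E10.5, 6 had an unadjusted p under 0.05 at E10.0 by limma, against 2.46% of all genes. Both stages used the same estimate of spread for a gene, which also helped to choose the 10. The count is therefore not an independent test of them. Among the 6 was 8430419K02Rik, which met the filter through wildtype PA2 alone. Pitx1 (1.07, adjusted p = 0.12), Hoxa2 (0.78, adjusted p = 0.13) and Errfi1 (-0.45, adjusted p = 0.12) did not pass at E10.0 by limma. For Hoxa2 edgeR gave -0.059 at this stage, of the opposite sign. Tle4 was at 0.22, Shox2 at 0.02 and Hs3st1 at -0.28.

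The levels of 3110099E03Rik and Meis2 at each stage are given as a description. By the library-division genes, wildtype E10.0 stood with the 38 libraries and wildtype E10.5 sided with the 18, so stage and division cannot be told apart in wildtype. At E10.0 it stood at 17.99 ± 9.89 CPM (SD, n = 5) in wildtype PA2 and 2.00 ± 1.09 CPM in labelled PA2, against 162 ± 13.1 and 6.29 ± 2.76 CPM (SD, n = 3) at E10.5. At E9.0 and E9.5 it had at most 2.08 CPM in any library. Meis2 in wildtype PA2 stood at 160 ± 16.4 CPM at E10.0 (n = 5) and 175 ± 6.54 CPM at E10.5 (SD, n = 3), and in labelled PA2 at 115 ± 5.89 and 111 ± 1.96 CPM. The test of E10.5 minus E10.0 found 0 genes (0%) past the threshold by limma and 0 by edgeR. By limma 552 genes (3.00% of those tested) had an unadjusted p under 0.05. No gene's value was therefore shown to differ between the stages.

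**Figure D5:**
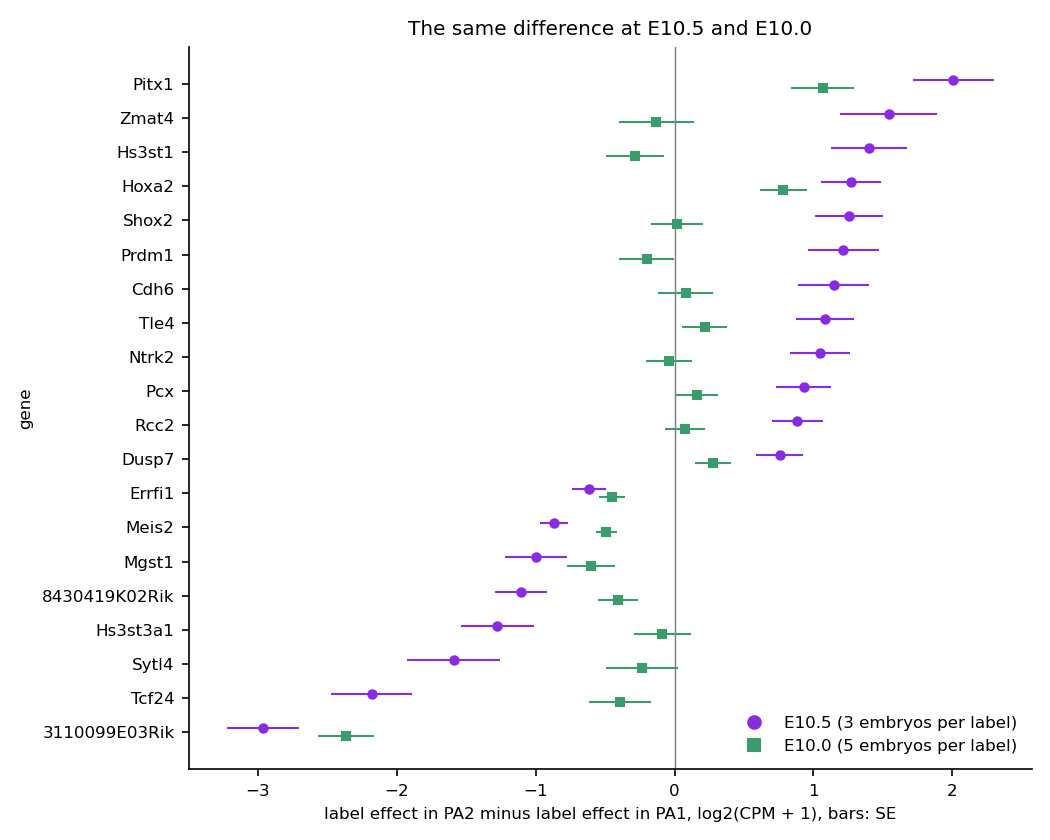
Difference of label effects between PA2 and PA1, log2(CPM + 1) (x axis), at E10.5 (purple circles, 3 embryos per label) and E10.0 (green squares, 5 embryos per label) for 20 named genes (y axis); bars are SE. 3110099E03Rik stands at -2.96 and -2.36 and Meis2 at -0.87 and -0.49, while Hs3st1 stands at 1.40 and -0.28.

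Read within each label, 421 genes (2.28%) differed between the arches of wildtype embryos and 474 (2.57%) between those of labelled embryos. The genes called in the difference were of several kinds in this view. Meis2, Tcf24 and 8430419K02Rik were higher in PA2 of wildtype embryos and did not pass with the label, Tle4 and Shox2 were lower in PA2 of wildtype embryos and did not pass with the label, and Hs3st1 passed with the label only, at 1.55 (adjusted p = 1.9e-06, limma). Hoxa2, Pitx1, 3110099E03Rik and Errfi1 passed in both labels in the same direction, with 3110099E03Rik at 3.71 and 0.75 and Errfi1 at 0.94 and 0.32.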

How the data were processed

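Arches were dissected by hand, RNA was extracted with TRIzol, and libraries were made from SMART-seq v4 cDNA with Nextera XT, per the labels' protocols. PCR copies of this cDNA carry no described molecular identifier, so several reads can stem from 1 molecule, and values at the floor cover counting error only. The submitters' processing notes name bcl2fastq 2.18, TopHat2 2.1.1, R 3.3.2 and the mm10 build. The counting program, annotation and use of strand are not given in the sources used here.

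The authors deposited 1 table of CPM-like values, recorded here as a signal because its columns sum to 926298 to 1051959. Values in 67 libraries were whole multiples of 1 read (100% of those under 1000 reads, within 0.01 reads), and these reads were used for edgeR. The other library, labelled PA1 E9.0 replicate 3, had a value per read that could not be told from a rounding step of the table, and was left out of edgeR, with its embryo in the block fit. The tests planned for CPM were kept. Symbols and positions are from GENCODE M21 (mm10).

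Genes with 1 CPM or more in 3 of 68 libraries were kept. The difference between arches was fitted with limma 3.58.1 in R 4.3.3 applied to log2(CPM + 1) values, the embryo being a block, over 66 libraries of 33 embryos with 25 residual degrees of freedom and a trended prior. Label effects within an arch used 1 mean per group over 68 libraries. Tests were two-sided with Benjamini-Hochberg adjustment over all 18428 genes. Values on this scale understate changes of low genes. With 3 embryos against 3, a single-gene exact permutation test cannot go below 0.10, and so none was used.

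The series text takes both arches from 1 embryo. At E10.5 the 6 same-numbered pairs deviated together (correlations 0.37 to 0.46). Nothing says that embryos came from separate litters. Replicate libraries differed by a chi-square of 6.20 to 11.9 per degree of freedom, so none was a copy.

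Named genes were Hoxa2, Meis2, Tle4 and Pitx1, all genes past the threshold, further genes by p with at least 5 CPM in a group and embryos that did not overlap, up to 20 in all, and the gene of smallest p in each list without a call. Genes whose symbol is a Gm number or ends in Rik were named by this rule only if past the threshold. The members, the 32 lists and the tests were chosen with earlier results of these data known. Alternatives were pseudocounts of 0.25 and 5, other filters, median-of-ratios scaling, edgeR 4.0.16, no embryo block, only the compared stages, and each embryo left out.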

Additional observations from a re-analysis of the deposited data

Results flagged for a closer look

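The label effect differed between PA2 and PA1 at E10.5 by limma's test of the difference for Hoxa2 (1.27), Meis2 (-0.87), Tle4 (1.08), Pitx1 (2.01), 3110099E03Rik (-2.96), Tcf24 (-2.18), 8430419K02Rik (-1.11), Hs3st1 (1.40), Shox2 (1.25) and Errfi1 (-0.62). At E10.0 it differed for Meis2 (-0.49) and 3110099E03Rik (-2.36). These are the values of the report, on the log2(CPM + 1) scale.

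Among the E10.0 groups of 5 libraries, 1 library stood far from the rest for 5 of 40 combinations of a group and a called gene. The rule is set for about 1 in 20 with independent normal values. The combinations share libraries, and for Tcf24 all other libraries of the group held 0. The 5 therefore cannot be set against that rate. Wildtype PA2 replicate 2 had 188 CPM of Meis2, and the others had 147 to 158. Wildtype PA2 replicate 5 had 91.9 CPM of Errfi1, against 102 to 106 in the others. Wildtype PA1 replicate 1 had 0.909 CPM of Hs3st1, against 1.502 to 1.570. The other two were low levels: 0.440 CPM of 8430419K02Rik in labelled PA1 replicate 2, and 0.0785 CPM of Tcf24 in wildtype PA1 replicate 2, where the others had 0.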

How the results depend on the processing

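For the 10 called genes, 114 values of the difference at E10.5 under all alternatives kept direction and call. A further 43 kept direction but missed the threshold, and 0 reversed. The number of genes past the threshold in the difference at E10.5 was 36 with a pseudocount of 5 (15 up, 21 down), 22 with no filter, 16 with a filter on the E10.5 libraries and 176 with the spread of the 6 E10.5 embryos alone in the replicate block fit (149 up, 27 down). Leaving out each embryo gave 5 to 11. Without the replicate block it was 7 over 68 libraries (5 of the 10 genes kept) and 12 over the E10.5 libraries alone, and edgeR gave 9, of which 6 were among the 10. At E10.0 the count was 8 with a pseudocount of 5 and 14 with the spread of its own embryos, and 4 to 5 with an embryo left out. The test between stages gave 3 with a pseudocount of 5, 3 with only the compared embryos and 0 to 3 with an embryo left out. In PA1 alone the count was 957 with only its 6 libraries and 181 to 596 with 1 left out. In PA2 alone it was 2423 with only its 6 libraries and 1100 to 1419 with 1 left out. A block by number between labels, which the labels do not support, gave 1443 in PA2 and 383 in PA1. The cause of these changes was not tested.

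Hoxa2 at E10.0 was 0.78 by limma and -0.059 with edgeR. With 1 library or embryo left out in turn, the PA1 effect of Hoxa2 ran from -0.35 to 0.084, Slc4a1 (0.48 with all) from -0.037 to 0.79 and Tnni3 from -0.020 to 0.24. In the same fits Shox2 at E10.0 ran from -0.11 to 0.18, the PA2 effect of Shox2 from -0.029 to 0.23 and the PA1 effect of Tcf24 from -0.012 to 0.077. The depth limits Tcf24 and 8430419K02Rik, whose low groups lie at or near 3 reads.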

Other observations

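When the spread was taken from the 6 E10.5 embryos alone, 176 genes passed in the difference between arches, of which 84.7% were positive. Of the 176, 35 (19.9%) belonged to a gene list, as did 2.05% of all genes tested. The lists were chosen with earlier results of these data known, so these shares are not a result about the lists. The following genes were chosen after their values were seen, and their adjusted p-values in the fit over all stages are given for comparison. Gpr50, an orphan receptor gene, stood at 9.31 ± 1.84 CPM in wildtype PA2 and 30.2 ± 8.95 CPM in labelled PA2 (SD, n = 3), against 98.9 ± 9.76 and 93.6 ± 1.52 CPM in PA1, for a difference of 1.65 (limma adjusted p = 1.0e-04 with the 6 embryos and 0.14 over all stages). Barx1, a homeobox gene of tooth and jaw mesenchyme, stood at 57.9 ± 6.28 CPM in wildtype and 177 ± 9.02 CPM in labelled PA2 and at 116 ± 20.3 and 178 ± 12.1 CPM in PA1, for a difference of 0.98 (4.8e-04 and 0.90).

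Among genes with a negative difference by this fit was Enpp2, which encodes the enzyme autotaxin, with 186 ± 8.76 CPM in wildtype and 70.2 ± 28.5 CPM in labelled PA2 and 112 ± 11.996 and 107 ± 13.1 CPM in PA1 (SD, n = 3). Its difference was -1.39 (limma adjusted p = 1.6e-04 with the 6 embryos and 0.40 over all stages).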
